A study of Mus musculus with 2 samples.

Results

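The 8 genes described here, Ccr1, Ccr2, Ccr6, Ccr7, Cx3cr1, Xcr1, Cxcr4 and Cxcr3, encode receptors with which leukocytes of the lung sense chemokines. They were taken by name from the 31053 genes of the count tables, and their unique molecular identifiers (UMIs, each standing for 1 captured transcript) were counted in every cell class, treatment pool and lane. None of the 8 was used to assign a cell to a class. A level is expressed as CPM, a gene's UMI count scaled to 1000000 UMIs of the same cells, and beside them stands the share of cells in which at least 1 UMI of the gene was found.

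Chemokine receptors are G protein-coupled receptors that turn the movement of a cell toward the source of a secreted chemokine. In the lung, Ccr2 draws monocytes out of the blood, Cx3cr1 is carried by patrolling monocytes and by tissue macrophages, and Ccr7 takes dendritic cells (DCs) that have matured through the lymph vessels to the draining lymph node. Xcr1 belongs to the conventional DCs of type 1 (cDC1), which present antigen of other cells to CD8 T cells, Cxcr3 and Ccr6 guide lymphocytes to inflamed tissue and to mucosal surfaces, and Cxcr4 holds many leukocytes at sources of Cxcl12.

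Lung cells of female C57BL/6J mice were studied after 3 treatments. Mice of the asthma group were sensitized into the peritoneum with ovalbumin (OVA), an egg protein used as a model allergen, on the adjuvant Alum, and then received OVA through the nose. Mice of the tolerance group inhaled OVA ahead of that same protocol. Control mice were given Alum alone into the peritoneum and saline through the nose, so that Alum was common to every group.

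The cells of a treatment came from 1 pool of mice. DCs were sorted for high MHC-II and CD11c among cells that lacked MerTK, CD64 and Ly6C, a gate that removes many monocytes and interstitial macrophages, and alveolar macrophages were sorted as well. Pools were marked with hashtag antibodies, mixed in equal numbers and run on 2 lanes, which are repeat runs of the same mixture. With 1 pool per treatment no difference between treatments can be tested, and the spread between pools includes the treatment. The 6 matrices, 1 for each pool and lane, held between 7897139 and 11459855 gene UMIs, no barcode was shared between pools of a lane or between lanes, and 9856 cells passed the filters. 8346 of them were gated on 15 lists of marker genes, and 1510 cells (15.32%) stayed without a class.

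The classes are called by the markers that define them, as mature DC-like, cDC1-like, cDC2-like, alveolar macrophage-like (AM) and interstitial macrophage-like (IM), classical and nonclassical monocyte-like, neutrophil-like, B cell-like, T cell-like, NK cell-like and endothelial-like, and are named hereafter without the suffix. Every marker of a class's own list was detected in it. Mature DCs numbered 279 (185, 65 and 29 in the asthma, tolerance and control pools), cDC1 320 (144, 88 and 88), cDC2 904 (490, 267 and 147), AM 4486 (1433, 671 and 2382) and IM 854 (322, 484 and 48). There were 360 nonclassical and 99 classical monocytes, 556 B cells, 171 T cells, 77 neutrophils, 24 NK cells and 198 endothelial cells. Median depth ran from 1553 UMIs per cell in neutrophils to 7401 in cDC1. The classical monocyte gate was mixed, since only 34 of its 99 cells bore the same name when clusters were named from the same markers, and none of the 24 NK cells stood in a cluster of its own name.

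The genes lie on 5 chromosomes of the mouse genome (GRCm38, the build mm10 of the count tables). Xcr1 (chromosome 9, 123852315 to 123862029, minus strand), Ccr1 (123962124 to 123968692, minus strand) and Ccr2 (124101950 to 124113557, plus strand) lie in this order on chromosome 9, with 100094 bases between Xcr1 and Ccr1 and 133257 between Ccr1 and Ccr2. Only the members were placed, so other genes may lie between them. Cx3cr1 (119901616 to 120069879, minus strand) lies on the same chromosome. Ccr7 is on chromosome 11 (99144196 to 99155077, minus strand), Ccr6 on chromosome 17 (8236043 to 8257141, plus strand), Cxcr4 on chromosome 1 (128588199 to 128592293, minus strand) and Cxcr3 on chromosome X (101731535 to 101734269, minus strand).

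Of the genes on chromosome 9, Xcr1 had its highest level in cDC1, Ccr1 in neutrophils and Ccr2 in classical monocytes and IM. To let the start regions of genes with unlike distributions be compared, the window from 250 bases before to 50 after the annotated start is printed for Xcr1 and Cxcr3, which had most of their UMIs in cDC1, and for Cxcr4, which stood above 41 CPM in every class. The sequences are those of RefSeq for GRCm38.p6, read 5′ to 3′ on the strand of the gene, at chr9:123861980-123862279, chrX:101734098-101734397 and chr1:128592250-128592549, all on the minus strand. Capitals mark matches to 4 motifs searched on both strands.
Xcr1: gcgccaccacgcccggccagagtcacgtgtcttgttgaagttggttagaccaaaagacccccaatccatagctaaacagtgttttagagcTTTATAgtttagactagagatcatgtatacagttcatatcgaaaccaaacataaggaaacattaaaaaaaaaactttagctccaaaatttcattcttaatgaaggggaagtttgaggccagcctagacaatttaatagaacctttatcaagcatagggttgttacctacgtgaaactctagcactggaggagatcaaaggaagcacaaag
Cxcr3: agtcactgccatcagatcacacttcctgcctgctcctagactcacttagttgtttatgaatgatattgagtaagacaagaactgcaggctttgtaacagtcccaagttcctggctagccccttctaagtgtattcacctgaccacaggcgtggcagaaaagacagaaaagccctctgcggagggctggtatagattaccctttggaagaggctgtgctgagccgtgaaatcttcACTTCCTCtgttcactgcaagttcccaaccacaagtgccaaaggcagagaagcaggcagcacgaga
Cxcr4: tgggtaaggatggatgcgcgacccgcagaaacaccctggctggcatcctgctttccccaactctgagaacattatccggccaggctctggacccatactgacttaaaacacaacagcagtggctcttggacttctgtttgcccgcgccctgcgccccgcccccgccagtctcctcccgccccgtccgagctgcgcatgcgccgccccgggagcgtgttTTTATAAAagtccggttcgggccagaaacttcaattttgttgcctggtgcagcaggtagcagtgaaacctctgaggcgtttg
The motifs were TATAAA (the TATA box), GAGGAAGT (a site of PU.1, a transcription factor of myeloid and B cells), TGANTCA (AP-1) and GGGANTTTC (NF-kB). Cxcr4 had a TATA match on the plus strand that begins 30 bases before the start, and an overlapping match on the minus strand. Xcr1 had a TATA match on the minus strand that begins 160 bases before the start, and Cxcr3 a PU.1 match on the minus strand 16 bases before it. These distances are from the RefSeq starts, which for Cxcr3 and Cxcr4 differ from the gene ends given above, taken from the GENCODE annotation. The GENCODE end of Cxcr3, 101734269, lies inside the printed window and upstream of the PU.1 match. Among 32851 promoter windows of the same length, TATAAA was found in 13.6%, GAGGAAGT in 3.2%, TGANTCA in 7.81% and GGGANTTTC in 1.11%. No match to the 4 motifs was found in the windows of Ccr1, Ccr2, Cx3cr1 and Ccr6, and Ccr7 had no window in the table used. A match is a run of letters and shows no binding.

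**Figure D1:**
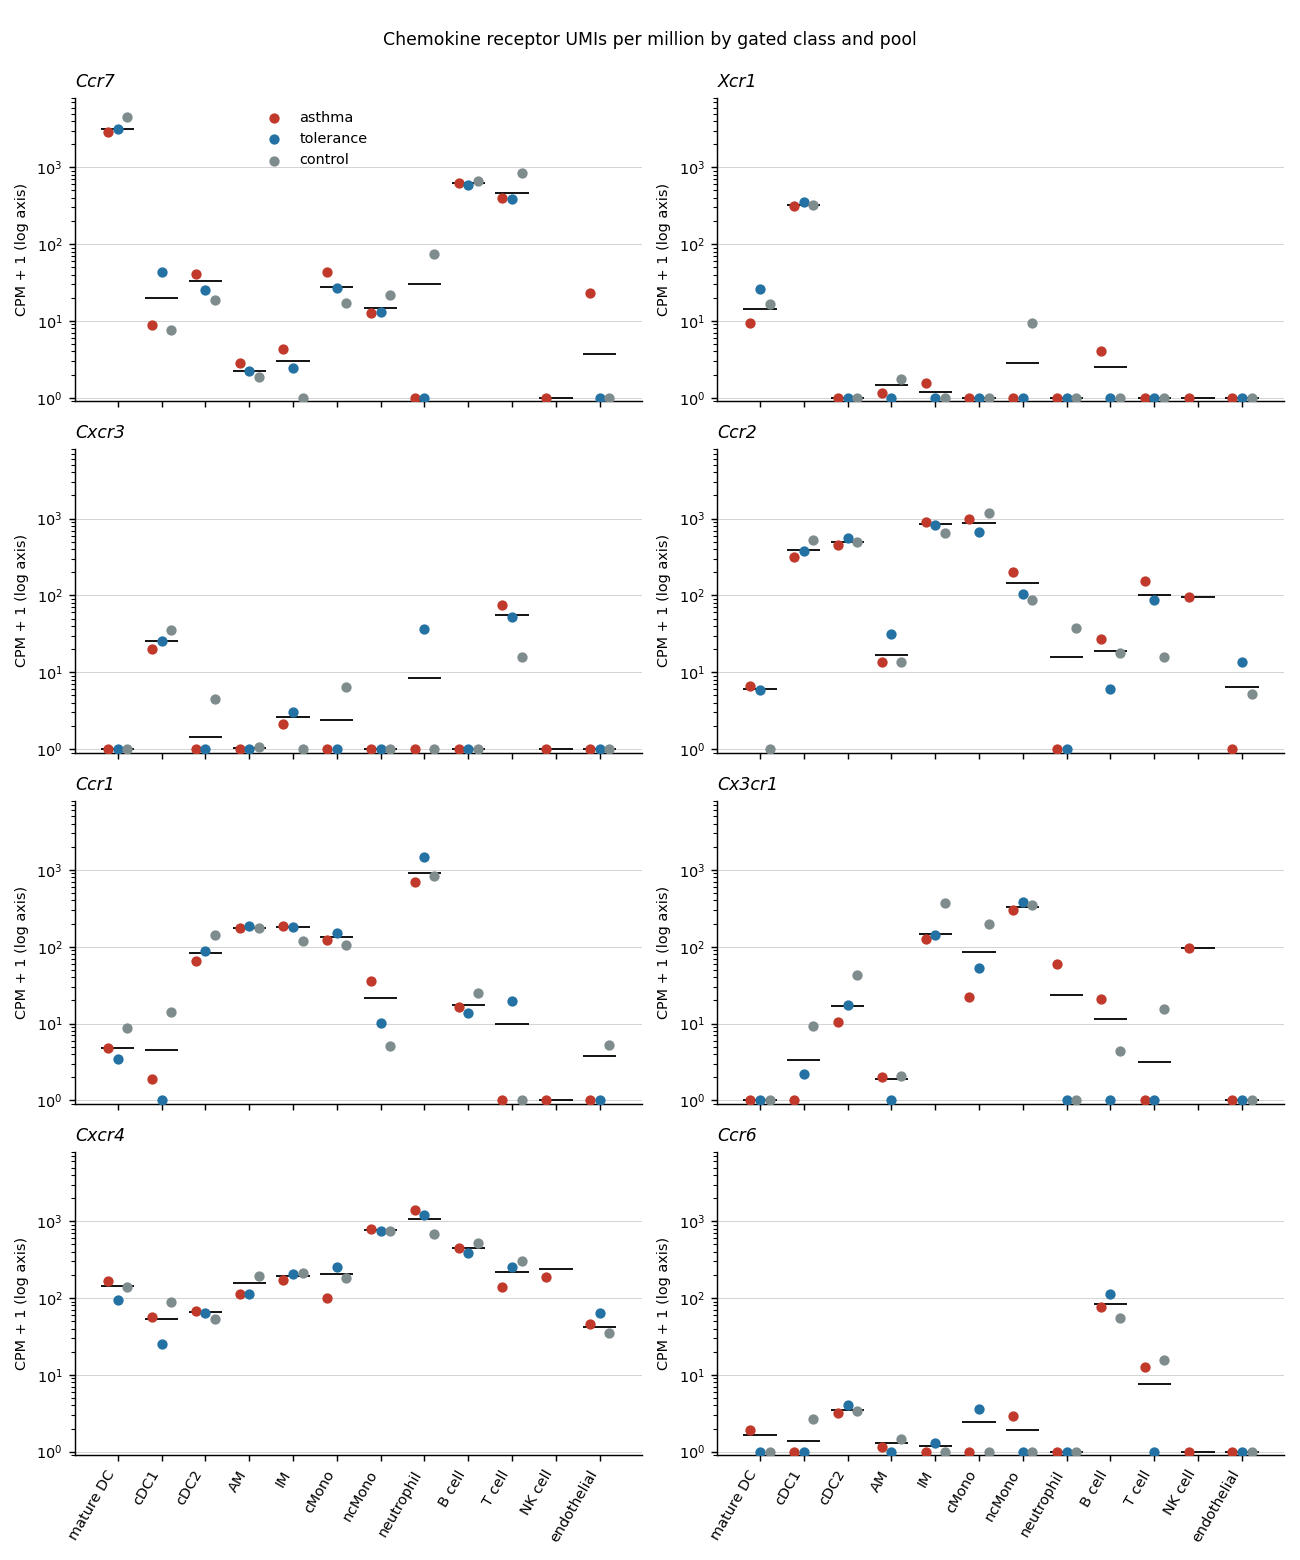
Level of each of the 8 receptor genes in 12 cell classes, as CPM + 1 on a log axis, so that 0 stands at 1; each point is 1 treatment pool of at least 10 cells (lanes added) and each line the value over all cells of the class (cMono and ncMono, classical and nonclassical monocytes). Ccr7 stood near 3117 CPM in mature DCs, Xcr1 at 325.0 CPM in cDC1, and Cxcr4 above 41 CPM in every class.

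Ccr7, the receptor for Ccl19 and Ccl21, was the member of mature DCs. It was measured at 2917, 3195 and 4522 CPM in mature DCs of the asthma, tolerance and control pools, and 273 of 279 cells (97.85%) had a UMI, with a median of 17 and a maximum of 55 UMIs per positive cell. In cDC1 the pools had 7.886, 42.42 and 6.599 CPM and in cDC2 39.47, 23.94 and 17.68 CPM, in the same order. No pool of either resting class came near any pool of the mature class. Over cDC1 the log2 fold change was 7.71 (standard error 0.36) and over cDC2 it was 7.15 (standard error 0.27, adjusted p = 5.89e-21). Both are from the quasi-likelihood test of edgeR, adjusted by Benjamini-Hochberg over all genes tested, n = 3 pools. The gene entered the fit with cDC1 through mature DCs alone, so no p-value is given for it. Without the tolerance pool the log2 fold change over cDC1 was 9.04. In endothelial cells, which should lack the gene, 1 of 198 cells had a UMI (0.505%) at a median depth of 1568 UMIs, against a median of 5513 in mature DCs. With each cell thinned to 1500 UMIs, 90.91% of mature DCs still held one.

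The few Ccr7 UMIs of the resting DCs were gathered in few cells. In cDC1, 48 UMIs lay in 8 of 320 cells and 89.58% of them in 3 cells, 1 of which had 33. In cDC2, 216 UMIs lay in 67 of 904 cells (7.412%), and 20 cells with 3 or more UMIs held 153 of them. These 20 cDC2 had a median of 2 of the 10 mature DC markers, with a range of 0 to 6, against a median of 1 in the 837 cDC2 without a Ccr7 UMI. Between cDC1 and cDC2 the log2 fold change of Ccr7 was -0.57 (standard error 0.46, adjusted p = 0.461, edgeR). The value hung on single pools: without the tolerance pool it was -2.005 (adjusted p = 0.00147, edgeR) and without the asthma pool 0.35, over a range of adjusted p from 9.19e-05 to 0.881 in 13 alternatives. Ccr7 entered the main fit through cDC2 alone, so these p-values add nothing to the fold change.

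Lymphocytes were the other place of Ccr7, which admits naive B and T cells to lymph nodes. B cells had 626.3, 584.6 and 661.3 CPM in the asthma, tolerance and control pools and a UMI in 68.17% of 556 cells. T cells had 402.7, 382.3 and 847.9 CPM, and a UMI in 48.53%, 46.48% and 84.38% of the cells of these pools. B and T cells overlapped, and their log2 fold change was 0.36 (standard error 0.21, adjusted p = 0.28, edgeR). It was 0.69 (adjusted p = 0.00699) without the control pool, the 1 in which T cells were higher, and the adjusted p ran from 8.57e-04 to 0.852 over 14 alternatives. No Ccr7 UMI was found in the 24 NK cells, which allows up to 12.5% of cells with a UMI and sets no limit on cells expressing the gene at this depth (a median of 1710 UMIs). Of all 6781 Ccr7 UMIs, 73.5% were in mature DCs and 12.25% in B cells.

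Xcr1, the receptor for the chemokine Xcl1 of NK and CD8 T cells, was the most narrowly placed of the 8, with 88.56% of its 944 UMIs in cDC1. cDC1 had 310.2, 349.0 and 320.0 CPM in the asthma, tolerance and control pools, and a UMI was found in 77.08%, 84.09% and 79.55% of the cells. No UMI was found in 904 cDC2, which allows a level of up to 0.439 CPM, or in classical monocytes, T cells, neutrophils, NK or endothelial cells. The pools of cDC1 thus lay close together and apart from every other class. Against cDC2 the level was at least 739.7-fold higher, taking the limit of 3 UMIs over the group in place of 0; the gene entered the fit through cDC1 alone, so its p-value adds nothing and is not given.

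Mature DCs held little Xcr1. Their pools had 8.449, 24.69 and 15.51 CPM, from 21 UMIs in 11 of 279 cells, against 325.0 CPM over cDC1. The log2 fold change of mature DCs over cDC1 was -4.37 (standard error 0.28, edgeR), and it lay between -4.80 and -3.76 with 1 pool left out. Not every mature pool met the count filter, so the gene entered the fit through cDC1 alone and no p-value is given. All 11 of the mature cells with Xcr1 also had Ccr7, while 6 of the 255 cDC1 with Xcr1 did. Xcr1 was not tested between mature DCs and cDC2 in the main fit, where too few libraries reached the count filter, and all 21 UMIs stood on the mature side.

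Cxcr3, the receptor for the interferon-induced chemokines Cxcl9 and Cxcl10, is best known from activated T and NK cells, but most of its 120 UMIs, 52.5%, were in cDC1. cDC1 had 19.28, 24.24 and 34.64 CPM in the asthma, tolerance and control pools, with 63 UMIs in 50 of 320 cells (15.62%) and never more than 3 in a cell. T cells had 74.79, 51.92 and 14.62 CPM, with 25 UMIs in 11 of 171 cells (6.433%). The share was higher in cDC1, whose median depth was 7401 UMIs against 2234 in T cells, while the level was higher in T cells of the asthma and tolerance pools and in cDC1 of the control pool, and 48% of the T cell UMIs lay in 3 cells. With each cell thinned to 1500 UMIs the shares were 3.774% in cDC1 and 4.082% in T cells. cDC2 had 3 UMIs in 904 cells, all in the control pool, and mature DCs, NK, B and endothelial cells had none.

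Against cDC2, Cxcr3 was higher in cDC1 by 5.47 on the log2 scale (standard error 0.65, edgeR). The value was 8.45 without the control pool, 4.62 without the asthma pool and 4.88 without the tolerance pool. With only 3 UMIs in cDC2, the gene entered the fit through cDC1 alone, so no p-value is given. Mature DCs, with 0 UMIs in 1599088, were at least 13.05-fold lower than cDC1, taking 3 UMIs over the group as the limit; here too the gene entered the fit through cDC1 alone and no p-value is given. Among cDC1, a Cxcr3 UMI was found in 18.04% of the 255 cells with Xcr1 and in 6.154% of the 65 without, whose median depth was lower, 6376 against 7592 UMIs. Depth was not matched in this comparison, and its part was not tested.

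Ccr2, the receptor for Ccl2, Ccl7 and Ccl12, separated the resting DCs from the mature ones in the direction opposite to Ccr7, by a smaller fold. Mature DCs had 5.633, 4.938 and 0 CPM in the asthma, tolerance and control pools, from 8 UMIs in 8 of 279 cells. cDC1 had 319.8, 383.0 and 527.9 CPM and cDC2 447.6, 552.9 and 497.3 CPM, with a UMI in 77.19% of cDC1 and 73.78% of cDC2. Mature DCs were at the level of endothelial cells (5.516 CPM), where 2 of 198 cells (1.01%) had a UMI. The log2 fold change of mature DCs was -5.95 over cDC1 (standard error 0.32) and -6.30 over cDC2 (standard error 0.32), both from edgeR. Without the asthma pool the values were -6.56 and -6.90. The gene entered both fits through the resting class alone, so no p-value is given. Ccr2 and Ccr7 thus moved in opposite directions between the same classes in all 3 pools. Between cDC1 and cDC2 the log2 fold change of Ccr2 was -0.27 (standard error 0.12, adjusted p = 0.143), and without the control pool, where cDC1 were not the lower class, it was -0.44 (adjusted p = 1.03e-04, in a range up to 0.747 over 14 alternatives).

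Among macrophages and monocytes, Ccr2 stood at 897.4, 835.8 and 644.8 CPM in IM of the asthma, tolerance and control pools, against 12.67, 30.33 and 12.71 CPM in AM. Tissue-resident AM renew in place and IM are in part replaced from blood monocytes. IM were higher by 5.59 on the log2 scale (standard error 0.23, adjusted p = 1.60e-09, edgeR), with a median of 6 UMIs in the 651 positive IM and of 1 in the 283 positive AM. Classical monocytes, which leave the bone marrow by way of Ccr2, had the highest value, 985.2, 671.9 and 1193 CPM, and their pools overlapped those of IM. Nonclassical monocytes had 200.1, 103.9 and 86.9 CPM, and their log2 fold change over IM was -2.64 (standard error 0.20, adjusted p = 3.56e-07, edgeR). Cells without a class held 29.8% of all 14636 Ccr2 UMIs, the largest such share of the 8 genes.

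Ccr1, a receptor for Ccl3, Ccl5, Ccl6 and other chemokines of inflammation, was highest in neutrophils, at 693.9, 1488 and 821.4 CPM in the asthma, tolerance and control pools, and 58 of 77 cells had a UMI although their median depth was only 1553 UMIs. Macrophages came next. IM had 183.8, 181.8 and 118.8 CPM and AM 172.0, 186.3 and 174.2 CPM, and the log2 fold change was -0.02 (standard error 0.13, adjusted p = 0.937, edgeR), which lay between -0.15 and 0.08 with 1 pool left out. Ccr1 was therefore the 1 receptor of the 4 tested in macrophages for which no difference between IM and AM was detected.

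In DCs, Ccr1 belonged to cDC2, with 64.98, 86.46 and 141.4 CPM in the asthma, tolerance and control pools and a UMI in 34.51% of cells. cDC1 had 9 UMIs in 320 cells, 8 of them in the control pool, and mature DCs 6 UMIs in 3 cells. Against cDC2 the log2 fold change of cDC1 was -4.63 (standard error 0.40), which was -6.96 without the control pool, and that of mature DCs was -4.06 (standard error 0.39), both from edgeR. Neither cDC1 nor mature DCs held enough UMIs to meet the count filter, so no p-value is given. Nonclassical monocytes had 20.21 CPM, and 18 of their 22 UMIs came from the asthma pool. Their log2 fold change over IM was -3.13 (standard error 0.32, edgeR), and -4.53 without the asthma pool. Here too the gene entered the fit through IM alone, so no p-value is given.

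Cx3cr1, the receptor for the membrane-bound chemokine Cx3cl1, was highest in nonclassical monocytes, which patrol the vessel wall. They had 296.4, 375.8 and 343.4 CPM in the asthma, tolerance and control pools and a UMI in 52.22% of 360 cells. IM had 125.3, 141.8 and 369.1 CPM, and AM had 21 UMIs in 4486 cells, or 0.870 CPM. IM exceeded AM by 8.23 on the log2 scale (standard error 0.27, edgeR). The gene entered that fit through IM alone, so no p-value is given. Nonclassical monocytes exceeded IM in the asthma and tolerance pools but not in the control pool, and the log2 fold change was 0.89 (standard error 0.24, adjusted p = 0.00948, edgeR). This call was lost in 6 of 14 alternatives, among them leaving out the asthma pool (0.62, adjusted p = 0.196) or the tolerance pool (0.58, adjusted p = 0.192), while without the control pool the value was 1.33 (range of adjusted p 7.71e-07 to 0.196).

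DCs carried little Cx3cr1. cDC2 had 108 UMIs in 77 of 904 cells, at 9.398, 16.41 and 42.42 CPM in the asthma, tolerance and control pools, cDC1 6 UMIs and mature DCs none in 279 cells, so that mature DCs were at least 8.433-fold lower than cDC2. NK cells had 4 UMIs in 4 of 24 cells and classical monocytes 21.11, 52.09 and 196.1 CPM. The control pool was thus the highest in each of IM, cDC2 and classical monocytes, but not in nonclassical monocytes.

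Cxcr4, the receptor for Cxcl12, was found in every class. Neutrophils, in which it increases with age, had 1407, 1205 and 675.3 CPM in the asthma, tolerance and control pools, and nonclassical monocytes 789.0, 742.4 and 740.7 CPM with a UMI in 84.17% of cells. B cells had 442.5, 384.6 and 521.5 CPM and T cells 138.1, 254.9 and 307.0 CPM. Even endothelial cells, at 41.37 CPM and 5.556% of cells, stood above the level of the other receptors there, and some endothelial cells are known to carry the gene.

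Nonclassical monocytes exceeded IM, at 171.0, 202.6 and 212.1 CPM, by 1.95 on the log2 scale (standard error 0.16, adjusted p = 7.64e-07, edgeR). IM in turn exceeded AM, at 112.2, 110.9 and 190.7 CPM, in each of the 3 pools, but the ranges overlapped and the log2 fold change was 0.67 (standard error 0.14, adjusted p = 0.00189, edgeR). That call was lost without the tolerance pool (0.49, adjusted p = 0.101) and without the pool as a replicate block (0.58, adjusted p = 0.0743), within a range of adjusted p from 7.91e-11 to 0.101 over 14 alternatives. B cells were higher than T cells by 1.04 (standard error 0.23, adjusted p = 0.00213, edgeR), which was 0.72 (adjusted p = 0.115) without the asthma pool and 1.04 (adjusted p = 0.0721) with DESeq2, the lowest of 14 adjusted p being 1.22e-05.

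Mature DCs had more Cxcr4 than either resting class. Their pools had 163.4, 93.82 and 139.6 CPM (asthma, tolerance and control), against 55.20, 24.24 and 87.44 CPM in cDC1 and 67.13, 63.41 and 51.85 CPM in cDC2. The lowest mature pool was above the highest pool of both. The log2 fold change was 1.59 over cDC1 (standard error 0.23, adjusted p = 2.32e-05) and 1.35 over cDC2 (standard error 0.19, adjusted p = 5.27e-07), both from edgeR. Between cDC1 and cDC2 it was -0.22 (standard error 0.27, adjusted p = 0.642), 0.18 without the tolerance pool and -0.59 without the control pool (adjusted p 0.735 and 0.0102, in a range up to 0.982).

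Ccr6, the receptor for Ccl20, was a gene of B cells in these data. B cells held 69.43% of its 157 UMIs, at 75.03, 112.8 and 54.54 CPM in the asthma, tolerance and control pools and in 87 of 556 cells (15.65%). T cells had 3 UMIs in 171 cells (6.607 CPM), and every other class was at or below 2.49 CPM, among them cDC2 with 17 UMIs in 16 cells. B cells were higher than T cells by 3.71 on the log2 scale (standard error 0.60, edgeR), a value of 2.47 without the tolerance pool and 4.62 without the asthma pool. The 3 UMIs of the T cells limit it, and the gene entered the fit through B cells alone, so no p-value is given.

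Counted over the 8 genes, a test was possible only where enough libraries held counts, so a gene that is high in 1 class alone could pass the count filter through that class, and the counts below describe rather than support. Between mature DCs and cDC1, 5 of the 8 were tested; Ccr7 and Cxcr4 were higher in mature DCs and Ccr2, Xcr1 and Cxcr3 lower, where 21.7% of 6532 tested genes were higher and 24.2% lower. Between mature DCs and cDC2, 4 were tested; Ccr7 and Cxcr4 were higher and Ccr1 and Ccr2 lower, against 23.5% and 25.1% of 7361 genes. Between cDC1 and cDC2, 6 were tested; Xcr1 and Cxcr3 were higher, Ccr1 was lower and 3 did not pass, against 10.4% higher and 10% lower of 7489 genes.

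In macrophages, 4 of the 8 were tested, and Cx3cr1, Ccr2 and Cxcr4 were higher in IM than in AM while none was lower, against 19.1% and 18.9% of 10238 genes. Between nonclassical monocytes and IM, Cxcr4 and Cx3cr1 were higher and Ccr2 and Ccr1 lower, against 21.4% and 19.9% of 5488 genes. Between B and T cells, 3 were tested, of which Ccr6 and Cxcr4 were higher and none lower, against 12.2% and 9.96% of 3714 genes. The median log2 fold change of the members tested, which went both ways in most comparisons, was -4.37 between mature DCs and cDC1, -1.36 between mature DCs and cDC2, -0.25 between cDC1 and cDC2, 3.13 between IM and AM, -0.87 between nonclassical monocytes and IM and 1.04 between B and T cells. Over all genes tested the 6 medians lay between -0.061 and 0.007. NK and T cells could not be compared by a fit, because only the asthma pool held 10 NK cells or more.

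**Figure D2:**
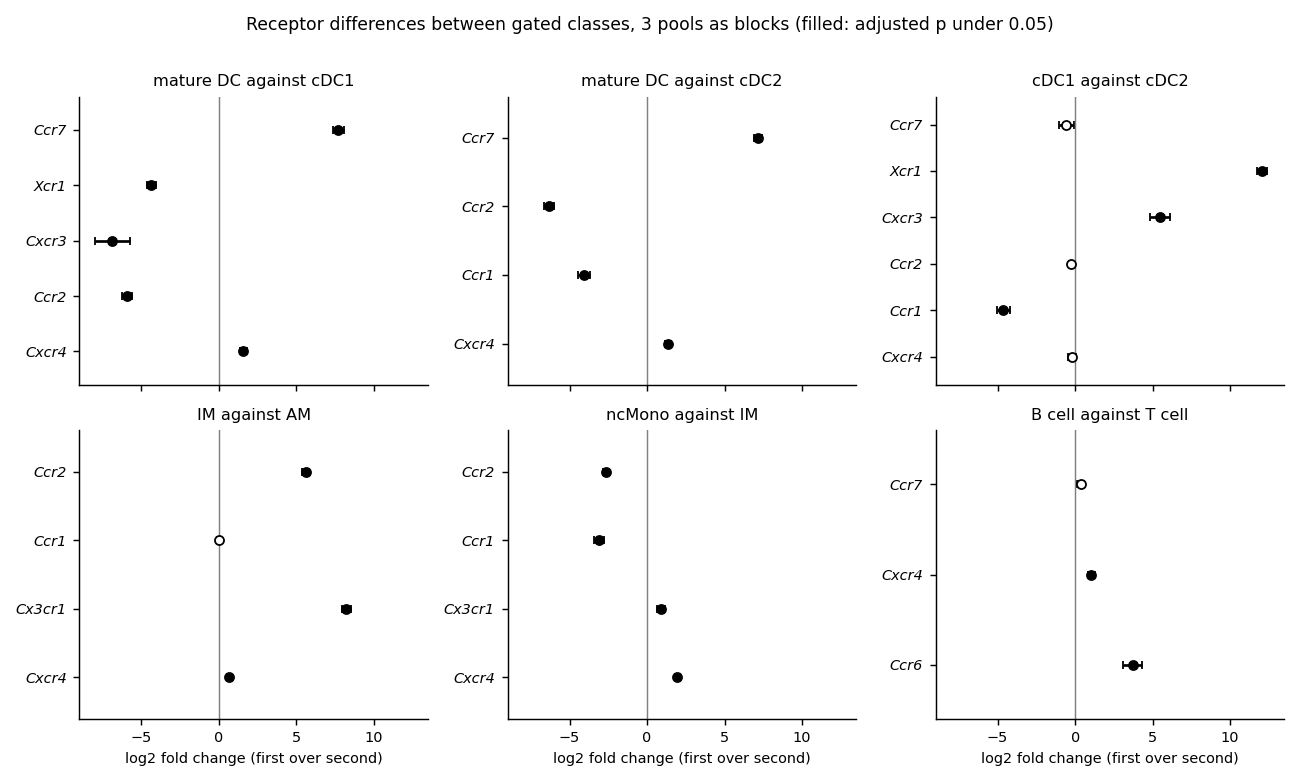
Log2 fold change of each receptor gene tested, for 6 pairs of classes (first class over the second), with bars of 1 standard error from edgeR's quasi-likelihood fit on 3 pools; filled points passed an adjusted p of 0.05 and open points did not. Ccr7 and Ccr2 lie on opposite sides of 0 in both comparisons of mature DCs, at 7.71 and -5.95 over cDC1 and 7.15 and -6.30 over cDC2. For a gene that passed the count filter through 1 class alone, the fill of the point adds nothing to the fold change.

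Whether the receptors differed between treatments could only be described. Over 34 pairs of a gene and a class with at least 40 UMIs, 9 had a ratio to the control pool past 1.5-fold in both OVA-treated pools with a counting interval that excluded 1. In 7 of these the asthma and tolerance pools were lower than control and in 2 they were higher, while 25 pairs did not meet the rule. The share of all genes that met this rule was not computed, so whether 9 of 34 is many cannot be said. The shares of genes given below are for each pool alone past 1.5-fold, without the interval, and are thus for a looser rule. The tally depended on the processing: under each of 5 alternatives 6 of the 9 pairs met the rule, and those that met it in all 5 were Cx3cr1 in IM, Cx3cr1 in cDC2 and Cxcr4 in AM. The intervals are 95% conditional exact intervals that cover counting error only, and both ratios of a pair share the control pool.

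Cx3cr1 accounted for 3 of the 7 lower pairs. In IM it was lower in the asthma pool (ratio 0.340, interval 0.264 to 0.440) and in the tolerance pool (0.384, 0.305 to 0.488) than in the control pool, where 18% and 16.5% of 8423 genes in IM were lower by 1.5-fold or more. In cDC2 the ratios were 0.222 (0.135 to 0.363) and 0.387 (0.238 to 0.630), against 13.3% and 12.9% of 8596 genes (0.412 and 0.605 with Leiden clusters), and in classical monocytes 0.108 (0.0212 to 0.341) and 0.266 (0.146 to 0.471), against 22.8% and 16.7% of 2791 genes, with 0.949 for tolerance without lane 2. Every lane of the control IM (438.7 and 295.9 CPM) and of the control cDC2 (57.15 and 32.08 CPM) was above every lane of the other pools, whose highest were 149.7 and 23.31 CPM. In classical monocytes the lanes did not repeat so well, with 0 and 37.21 CPM in the asthma, 89.34 and 19.52 CPM in the tolerance and 94.15 and 250.4 CPM in the control pool.

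The classes themselves differed between pools. The 48 control IM had 20609 CPM of the IM markers, against 13178 and 15090 CPM in the asthma and tolerance pools, and 318.2 CPM of the AM markers, against 2281 and 1306 CPM. In control classical monocytes the B cell markers summed to 610.2 CPM, against 56.3 and 52.09 CPM in the asthma and tolerance pools, and cDC2 of the asthma and tolerance pools had 1405 and 1341 CPM of the classical monocyte markers, against 300.5 CPM in control cDC2. The part of these differences in the levels of Cx3cr1 was not tested.

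Cxcr4 was lower in AM of both OVA-treated pools, with ratios of 0.588 (0.542 to 0.638) in asthma and 0.582 (0.525 to 0.643) in tolerance over control, where 11.6% and 14.8% of 10441 genes were lower by 1.5-fold or more. By lane the asthma pool had 111.4 and 112.9 CPM, the tolerance pool 125.0 and 98.82 CPM and the control pool 193.2 and 188.4 CPM, so that both control lanes were above every lane of the other pools. A UMI was found in 486 of 1433, 268 of 671 and 1310 of 2382 AM of the asthma, tolerance and control pools. The AM markers also differed, at 45191 and 54688 CPM in the asthma and tolerance pools against 17370 CPM in control AM, with all 10 detected in each class, and their part was not tested. In cDC1 the ratios of Cxcr4 were 0.631 (0.431 to 0.928) and 0.277 (0.157 to 0.472), against 9.7% and 12.5% of 6064 genes.

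Ccr1 in cDC2 was lower too, with ratios of 0.460 (0.368 to 0.577) in asthma and 0.612 (0.485 to 0.774) in tolerance, against the same 13.3% and 12.9% of genes. Ccr7 in T cells had ratios of 0.475 (0.331 to 0.685) and 0.451 (0.318 to 0.643), against 9.57% and 11.6% of 1588 genes, and its control lanes (822.3 and 865.6 CPM) were above every lane of the asthma pool (375.8 and 433.9 CPM) and of the tolerance pool (269.2 and 499.3 CPM). The 2 pairs in which the OVA-treated pools were higher were Ccr1 in IM, with ratios of 1.55 (1.05 to 2.37) and 1.53 (1.05 to 2.32), against 25.6% and 22.9% of the 8423 genes, and Cxcr4 in neutrophils, with 2.08 (1.38 to 3.18) and 1.78 (1.09 to 2.92), against 14.6% and 15.9% of 472 genes. Both rest on few control UMIs, 28 and 37. Ccr1 in IM missed the rule in all 5 alternatives, with ratios down to 1.26 and 1.19, and Cxcr4 in neutrophils without lane 1, where the tolerance ratio was 1.21. Of the lower pairs, Ccr1 in cDC2 missed it with the stricter margin (0.677 in tolerance), Ccr7 in T cells with Leiden clusters (0.644 and 0.759) and Cxcr4 in cDC1 with the stricter margin and without lane 1 (0.648 and 0.725 in asthma).

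Among the 25 pairs that did not meet the rule, some kept a like level in all treatments. Xcr1 in cDC1 had ratios of 0.969 (0.811 to 1.16) in asthma and 1.09 (0.906 to 1.32) in tolerance over control, Ccr1 in AM 0.987 (0.920 to 1.06) and 1.07 (0.984 to 1.16), and Cxcr4 in nonclassical monocytes 1.07 (0.892 to 1.28) and 1.00 (0.823 to 1.22). For these pairs the intervals, which cover counting error only, do not reach a ratio of 1.5-fold between the pools in either direction. The spread between pools of 1 treatment was not measured, so a treatment change is not excluded. Ccr7 in mature DCs had ratios of 0.645 (0.590 to 0.706) and 0.707 (0.640 to 0.780), where the control pool held only 29 cells and 923.0 CPM of the nonclassical monocyte markers, against 245.0 and 279.0 CPM in the asthma and tolerance pools. Ccr2 in AM was higher in the tolerance pool alone, with a ratio of 2.39 (1.88 to 3.03) there and 0.997 (0.761 to 1.30) in asthma. Ccr2 was lower in cDC1 of the asthma pool (0.606, 0.520 to 0.706) and the tolerance pool (0.7255, 0.619 to 0.850). In IM it was higher in both (1.39, 1.18 to 1.65, and 1.30, 1.10 to 1.54). In asthma alone, Ccr2 in nonclassical monocytes was higher (2.30, 1.43 to 3.88) and Cxcr4 in T cells lower (0.450, 0.240 to 0.85).

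**Figure D3:**
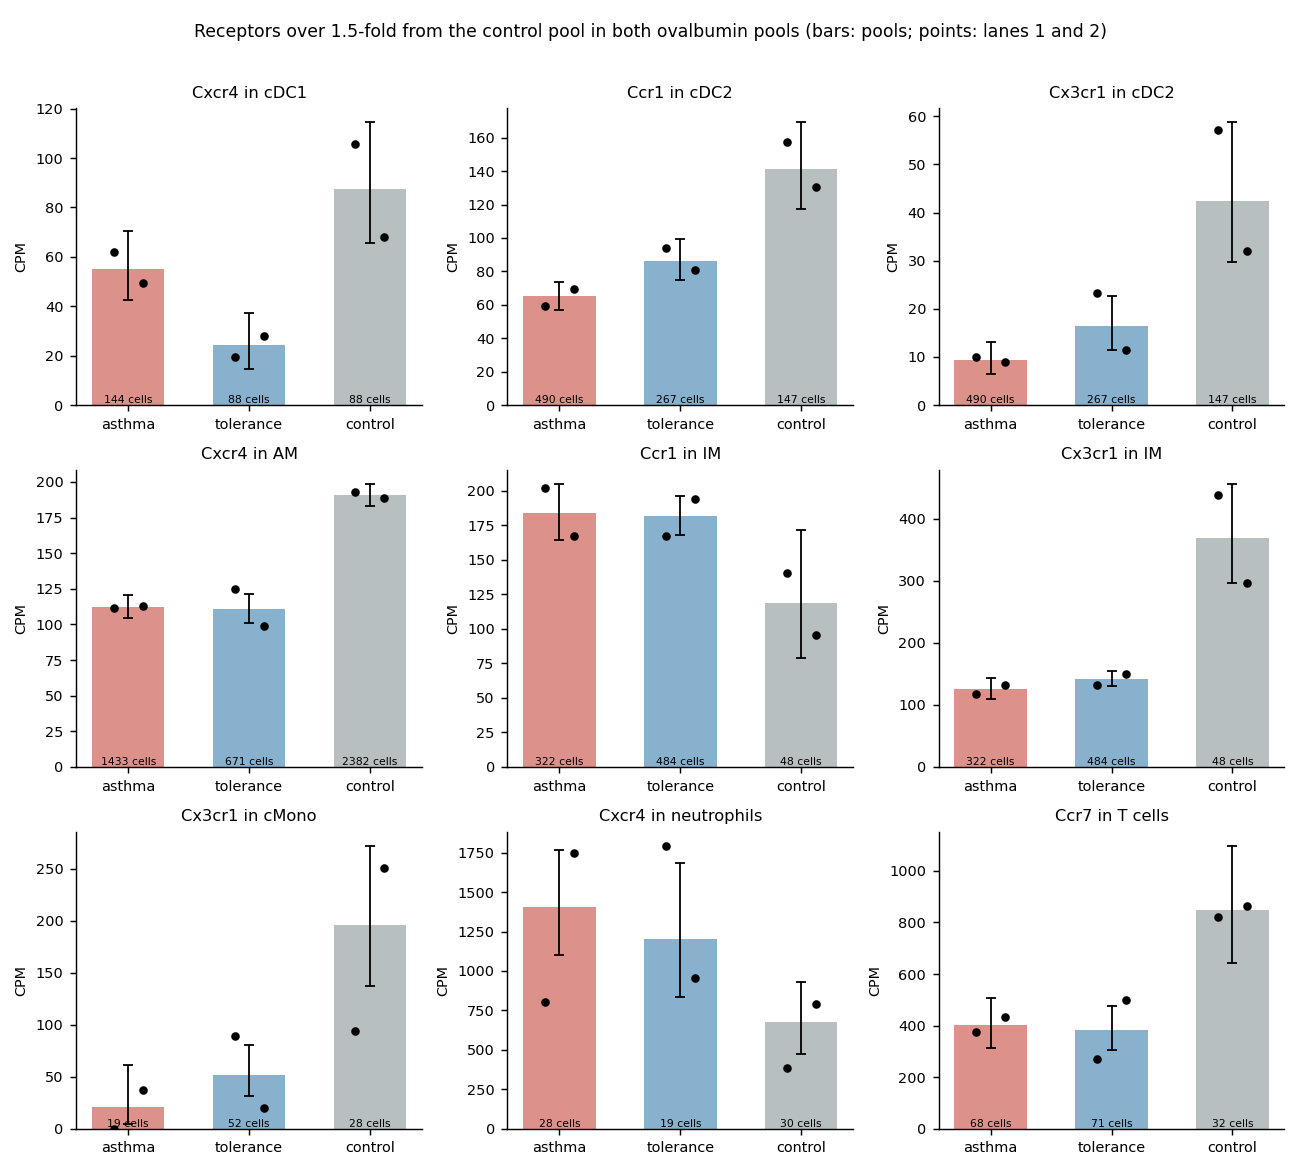
Level in CPM of the 9 pairs of a receptor gene and a class that differed from control by over 1.5-fold in both OVA-treated pools; each point is 1 lane of the asthma, tolerance or control pool, and each bar the level over both lanes of a pool, with its 95% exact Poisson interval. Cxcr4 in AM stood at 112.2, 110.9 and 190.7 CPM, and Cx3cr1 in IM at 125.3, 141.8 and 369.1 CPM.

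Most cells held UMIs of few of the 8 genes. In mature DCs 58.06% of cells had exactly 1 of them, in 34.77% there were 2, and 1.792% had none. Of the 320 cDC1, 45.62% had 2 and 22.5% had 3, and of the 854 IM 28.69% had 3 and 9.251% had 4 or more. Endothelial cells had none in 92.42%. These shares move with depth, which was 5513, 7401, 6121 and 1568 UMIs per cell at the median in these 4 classes.

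**Figure D4:**
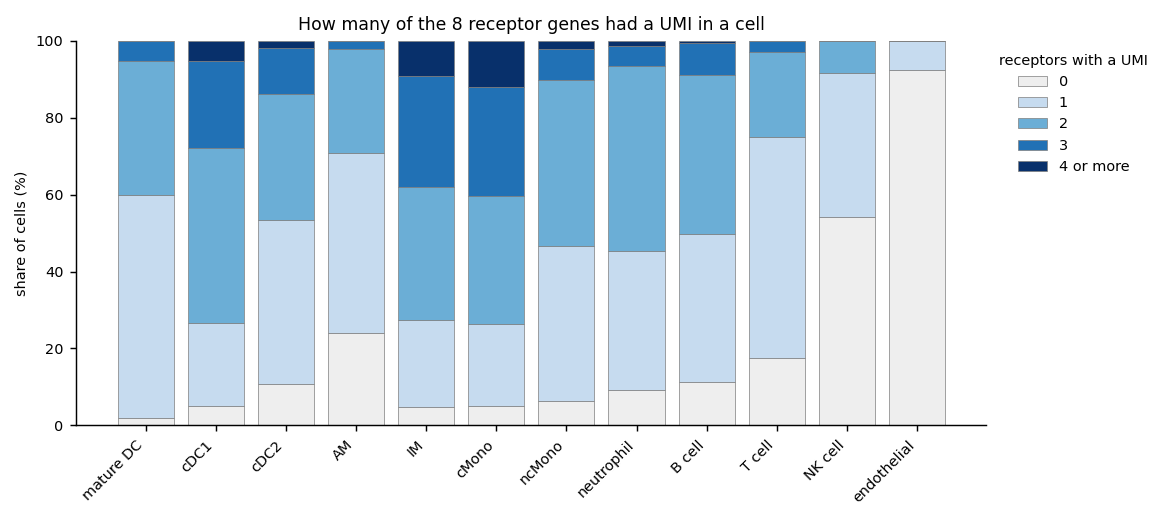
Share of cells of each class, in percent, with UMIs of none, 1, 2, 3 or at least 4 of the 8 receptor genes, as stacked bars from 0. In mature DCs 58.06% of cells had 1 of the genes, in cDC1 45.62% had 2, and in endothelial cells 92.42% had none.

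Pairs of receptors were also read within cells. Of the 255 cDC1 with an Xcr1 UMI, 81.57% also had Ccr2, against 60% of those without, at median depths of 7592 and 6376 UMIs. In T cells Ccr7 and Ccr2 were seldom found in 1 cell: a Ccr2 UMI was found in 1 of the 93 cells with Ccr7 (1.075%) and in 25.64% of the 78 without, although both sets had a like depth, 2240 and 2116 UMIs. By pool a Ccr2 UMI was found in 0 of 33 asthma, 1 of 33 tolerance and 0 of 27 control T cells with Ccr7, against 10 of 35, 9 of 38 and 1 of 5 without. This was not tested. Of the 273 mature DCs with Ccr7, 38.1% had Cxcr4. In nonclassical monocytes Cxcr4 was found in 85.11% of cells with Cx3cr1 and 83.14% of cells without.

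Subsets within the classes, taken by markers and given without a test, split the receptors further. The 31 T cells with Foxp3 or Ctla4, genes of regulatory T cells, had 270.5 CPM of Ccr2 and 109.9 CPM of Ccr7, against 41.69 and 583.7 CPM in the 140 T cells with neither. In the asthma and tolerance pools the Ccr2 level of these cells was 517.8 and 117.6 CPM, against 23.54 and 69.53 CPM in the others. All T cells together held 46 Ccr2 UMIs in 21 cells, 45.65% of them in 3 cells, so these levels rest on few cells. IM with MHC class II above the median had 1039 CPM of Ccr2 and 174.3 CPM of Cx3cr1, against 660.1 and 118.5 CPM in the rest, and for Ccr2 the same order held in all 3 pools (1083 against 756.2, 1033 against 615.8 and 838.3 against 450.6 CPM in asthma, tolerance and control). The 79 IM with Lyve1, Folr2 or Cd163, genes of perivascular macrophages, had 524.0 CPM of Ccr2 against 883.2 CPM in the others.

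Among cDC2, the 325 cells with the highest Trf and Clec4b1 had 637.6 CPM of Ccr2 and 13.12 CPM of Ccr7. The 207 cells with the highest Cd209d and Cd209e had 363.4 and 53.42 CPM, and the 293 with the highest Klrd1, Cd7 and Ifitm6 had 404.2 and 36.59 CPM. These subsets drew on the pools unequally, since the Trf and Clec4b1 cells held 113 of the 147 control cDC2 and the Cd209d and Cd209e cells 1. In the control pool Ccr2 was 477.6 CPM in the Trf and Clec4b1 cells, against 576.7 CPM in the Klrd1, Cd7 and Ifitm6 cells, an order opposite to that in the asthma pool (676.0 and 354.0 CPM) and the tolerance pool (741.0 and 440.6 CPM). In the 66 cDC2 that were high in interferon-induced genes Ccr2 was 297.7 CPM and Ccr7 87.87 CPM, against 505.5 and 26.63 CPM in the rest. The order of Ccr7 was not the same in each pool: in the tolerance pool it was 19.91 CPM in the Cd209d and Cd209e cells, against 22.26 CPM in the Trf and Clec4b1 cells. Cxcr4 in AM high in interferon-induced genes was 85.56 and 71.83 CPM in the asthma and tolerance pools, against 117.6 and 124.6 CPM in the other AM of these pools. It was 220.8 CPM in 248 cycling AM against 148.5 CPM in AM not cycling, which were shallower, with a median of 4924 against 7320 UMIs.

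The genes whose levels were most like those of each receptor were found by the Pearson correlation of log2(CPM + 1) over 34 libraries of a pool and a class, among 6324 genes that are no markers. These libraries share cells of the same 3 pools, and the values are descriptions. For Xcr1 they were A530099J19Rik (r = 0.904), Dbn1 (0.851) and Timd4 (0.710), for Ccr1 Fth1 (0.894), Cd14 (0.876) and Clec4n (0.868), and for Ccr6 Srpk3 (0.887), Tmem108 (0.866) and Tmem163 (0.854). For Ccr2 they included P2ry6 (0.817) and Qpct (0.816), for Ccr7 Spint2 (0.837), Ifi214 (0.812) and Slamf1 (0.763), and for Cx3cr1 they included Arhgef10l (0.806) and Clec4a1 (0.802). Cxcr4 had the nearest genes Sik1 (0.776), Frat2 (0.749) and Mirt1 (0.744), and Cxcr3 had Cd226 (0.746), Cd40lg (0.661) and Ikzf2 (0.660).

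Of 17 other receptors of the family, few were high enough to test. Those with high levels included Ccrl2, a receptor that binds but does not signal, at 1661 CPM in neutrophils, Cxcr2, the neutrophil receptor for Cxcl1 and Cxcl2, at 630.1 CPM there, Cxcr5, which takes B cells to follicles, at 186.3 CPM in B cells, and Cxcr6, a receptor of tissue T cells, at 149.8 CPM in T cells. Ccrl2 was higher in mature DCs than in cDC1 (2.43) and cDC2 (0.66), and lower in cDC1 than in cDC2 (-1.92). In IM, Cmklr1 (8.39) and Ccrl2 (1.06) were higher than in AM and Cxcr1 was lower (-7.48). In nonclassical monocytes Ccrl2 was higher than in IM (0.96) and Cmklr1 lower (-3.58), and in B cells Cxcr5 was higher than in T cells (8.87) and Cxcr6 lower (-6.74), all as log2 fold changes past an adjusted p of 0.05 in edgeR. For Cmklr1, Cxcr1, Cxcr5 and Cxcr6 the lower class held too few UMIs to meet the count filter, so their calls add nothing to the fold changes. Cmklr1 was at 0.1658 CPM in AM and 5.511 CPM in nonclassical monocytes. Cxcr1 was at 0 CPM in IM, Cxcr5 at 0 CPM in T cells and Cxcr6 at 0.7483 CPM in B cells.

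The ligands of the 8 receptors were measured in the same cells. Ccl2 and Ccl12, which act through Ccr2, were highest in IM, at 422.7 and 370.7 CPM. Of the ligands of Ccr1, Ccl5 reached 27310 CPM in NK cells and 2241 CPM in mature DCs, and Ccl6 reached 5469 CPM in AM. Ccl5 was higher in mature DCs than in cDC1 (5.831 CPM) by 9.18 on the log2 scale (standard error 0.29, edgeR). It entered that fit through mature DCs alone, so no p-value is given. Of the ligands of Cxcr3, Cxcl10 reached 556.0 CPM in neutrophils and Cxcl9 403.0 CPM in classical monocytes and 291.9 CPM in cDC1. Xcl1, the ligand of Xcr1, was found at 94.66 CPM in NK and 39.64 CPM in T cells.

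Some ligands had few UMIs. Ccl21a (259.3 CPM), Cxcl12 (278.6 CPM) and Cx3cl1 (66.2 CPM) were highest in endothelial cells, with Cx3cl1 also at 15.34 CPM in AM. Ccl19 had 2 UMIs in all cells, and no Ccl20 UMI was found. Between IM and AM 11 of the 17 ligand genes were tested, of which 8 were higher and 3 lower in IM (19.1% and 18.9% of all genes), with a median log2 fold change of 2.22 against 0.01 over all genes tested. Between nonclassical monocytes and IM 8 were tested, 1 higher and 7 lower (21.4% and 19.9% of all genes), with a median of -4.06 against -0.01. Of the lower ones, Ccl7, Ccl12, Cxcl9 and Cxcl10 stood at 2.756, 3.674, 5.511 and 7.349 CPM in nonclassical monocytes and entered the fit through IM alone. Between mature DCs and cDC1 4 of 7 were higher and 2 lower (21.7% and 24.2% of all genes), and over cDC2 3 of 8 were higher and 3 lower (23.5% and 25.1%). Between cDC1 and cDC2 1 of 6 was higher and 3 lower (10.4% and 10%), and between B and T cells 1 of 2 was lower (9.96%). As for the receptors, a ligand high in 1 class alone could pass the count filter through that class. These counts and medians of the ligands therefore describe rather than support.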

How the data were processed

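The authors aligned the 10x Genomics libraries to mm10 with Cell Ranger 3.1.0 (STAR) and split pools by hashtag with Seurat 3.1.5; the deposited values are whole-number UMI counts per gene and cell, not normalized. The members and the gene lists were chosen with earlier results of these data known. Of 10901 barcodes, 813 were left out, 661 for more than 20% mitochondrial UMIs, 22 for more than 20000 UMIs in all and 619 for fewer than 500 genes, some for several reasons. Scrublet marked only 0.059% and 0.121% of the cells of the lanes, so the 2% with the highest scores were removed (122 and 110). Cells were gated on 119 markers (score at least 0.2, margin 0.1, at least 3 markers), and 1260 lay within 0.05 of the margin. UMIs were summed per pool and class (lanes added, at least 10 cells) and tested with edgeR 4.0.16 (R 4.3.3), quasi-likelihood with the pool as a block and Benjamini-Hochberg adjustment over all genes passing the count filter; classes of a pool come from the same mice, which is the source of the pairing. A p-value then measures the spread over 3 pools that were treated differently. A call is an adjusted p under 0.05. Where the lower class held too few UMIs to meet the count filter, the p-value adds nothing to the fold change. Limits at 0 take 3 counts, and intervals are 95% exact Poisson or Clopper-Pearson and cover counting error only. Named genes are the 8 members, the called members of the lists of 17 other receptors and 17 ligands or their highest classes, and the 3 genes most like each member; some of these are not reported here. Alternatives were DESeq2 1.42.0, no count filter, no block, single lanes, pools left out, other gates, Leiden clusters (scanpy 1.11.5) and 1200 genes per cell. The fit was tested on simulated data. Plots used matplotlib 3.10.9.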

Additional observations from a re-analysis of the deposited data

Results flagged for a closer look

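The same gene differed from the control pool in opposite directions in different classes, with every lane of the asthma and tolerance pools on one side of both control lanes. Ccr1 in cDC2 had ratios of 0.460 in asthma and 0.612 in tolerance over control, while in IM the ratios were 1.55 and 1.53. Cxcr4 in cDC1 had ratios of 0.631 and 0.277 and in AM of 0.588 and 0.582, while in neutrophils the ratios were 2.08 and 1.78. Ccr1 in IM missed the 1.5-fold rule, though not the direction, in all 5 alternatives. The difference between the classes was not tested, since each treatment had 1 pool.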

How the results depend on the processing

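The 21 called fold changes were refitted 288 times, of which 277 kept their call, 11 lost it and 0 turned direction. Of 69 refits of the 5 uncalled ones, 54 stayed, 8 passed the threshold and 7 turned direction. The called ones include genes that entered a fit through 1 class alone, for which no p-value is given above. Their calls could hardly be lost in a refit, so the tally describes and does not support them. The uncalled ones that turned were Ccr7 between cDC1 and cDC2 (0.19 without lane 1, 0.54 with Leiden clusters, and -2.005 to 0.35 with a pool left out), Cxcr4 there (-0.59 to 0.18 with a pool left out) and Ccr1 between IM and AM (0.031 without lane 2, 0.017 at 1200 genes per cell, and -0.154 to 0.0751 with a pool left out). The cause was not tested. Without the pool as a replicate block, Cxcr4 between IM and AM was 0.58 (adjusted p = 0.0743, edgeR) and Cx3cr1 between nonclassical monocytes and IM 0.82 (adjusted p = 0.0652, edgeR), and no other call of a member changed. Between cDC1 and cDC2, 3 members were called, 5 with no count filter and 4 to 6 with a pool left out. Between B and T cells, 2 were called, but 1 with DESeq2, 4 with no filter, 1 on each lane alone, 4 with Leiden clusters, 5 at 1200 genes per cell, 4 with all classes in 1 fit (chosen after seeing the data) and 1 to 5 with a pool left out. DESeq2 called 916 genes higher and 894 lower between mature DCs and cDC1, against 1418 and 1581 with edgeR. NK cells were too few for a fit, so its alternatives were not run. Depth limits the low genes: Cxcr3 had 120 UMIs in all and Ccr6 157. Of the treatment ratios under alternatives, 421 stayed within the main interval, 54 left it and 3 turned direction. Of those whose interval excluded 1, Ccr2 in IM (tolerance over asthma, 0.931) was 1.04 without lane 1, Ccr7 in mature DCs (tolerance over asthma, 1.10) was 0.981 with Leiden clusters, and Cxcr4 in B cells (tolerance over control, 0.737) was 1.15 at 1200 genes per cell. Ratios could not be formed for Ccr2 in T cells without lane 2 and Ccr7 in cDC1 at 1200 genes per cell, where control had 0 UMIs.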
